A study of Mus musculus with 16 samples.

Results

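The genes described here are Myc, the proteins that share or oppose its DNA binding, the nucleolar proteins that make ribosomes, and 3 metabolic enzymes widely used as Myc readouts. The list held 38 genes and was chosen by name, with no threshold on measured values. A gene with several probes on the array was represented by the probe with the highest mean over all 16 arrays. Of the 38 genes, 33 had a named probe among the 25697 probes, and 28 were bright enough to be tested, of 8833 genes tested in all. The 28 genes comprised 5 of the Myc network (Myc, Max, Mxd1, Mxd4 and Mxi1), 20 of ribosome biogenesis and the 3 enzymes Cad, Odc1 and Srm. Npm3, Wdr43, Polr1b, Noc2l and Utp20 had no named probe. Mycn, Nop16, Wdr12 and Dkc1 were detected on 0 of 16 arrays and Nolc1 on 1, and these 5 genes were not tested.

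Myc is a transcription factor that pairs with Max and binds the E-box, a short palindrome found near many start sites. Mxd and Mxi1 proteins pair with the same partner, occupy the same sites and lower transcription there, and their genes often come on as blood cells mature. Among the best known Myc targets are the genes for ribosomal RNA synthesis, processing and assembly in the nucleolus, and for polyamine and pyrimidine synthesis, so that Myc activity and cell growth go together in blood progenitors and in acute myeloid leukaemia.

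The cells were mouse bone marrow cells enriched for c-Kit, the stem cell factor receptor that marks progenitors and mast cells. They came from Booreana mice, which carry a Myb mutation that weakens the binding of c-Myb to its coactivator p300, and from age-matched C57Bl6 wild-type mice, all 8 weeks old. The labels name 4 Booreana mice and do not say whether arrays of one number share a mouse or a pool. Each genotype was transduced with the MSCV-I-GFP retrovirus (control) or with MSCV-AML1-ETO9a-I-GFP, which carries a leukaemia-inducing short form of the AML1-ETO fusion protein. The fusion is thus driven by a viral promoter in every transduced cell, and all 4 groups were grown in IL-3, IL-6 and SCF and sorted as GFP-positive, c-Kit-positive cells 48 hours after transduction. Each group had 4 arrays.

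The series concerns the need for the c-Myb and p300 interaction when a fusion oncogene starts leukaemia, and 5 comparisons follow from it. They are AML1-ETO9a against control in each genotype, Booreana against wild-type with each virus, and the difference of the AML1-ETO9a responses between genotypes. Levels below are log2 of the background-corrected, quantile-normalised intensity, and a difference of 1 is a 2-fold change. A gene was called changed at a limma p below 0.05 after Benjamini-Hochberg adjustment over all 12760 probes tested.

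Between 11122 and 12002 probes were detected per array on 15 arrays, and 10158 on Booreana control replicate 2. The mean correlation of that array with the others was 0.845, against 0.931 to 0.955 for the rest, so results that rest on it are given with and without it. Cell type markers differed between the groups. The summed level of 10 neutrophil granule genes was 444106 to 460511 in wild-type control arrays, 198129 to 298035 with AML1-ETO9a, 116346 to 253661 in Booreana control arrays and 135370 to 244942 in Booreana arrays with AML1-ETO9a. The summed level of 4 erythroid genes was 287 to 856 in the 8 wild-type arrays and 4435 to 12228 in the 8 Booreana arrays. In wild-type control arrays and with AML1-ETO9a, the sums were 2450 to 3340 and 8216 to 10856 for 5 monocyte genes, 748 to 2121 and 3246 to 7569 for 6 megakaryocyte genes, and 15149 to 33627 and 3865 to 9074 for 4 eosinophil genes. That of 6 genes of S phase and mitosis was 26598 to 34225 in wild-type control arrays and 19774 to 24715 with AML1-ETO9a, and none of these 4 pairs of ranges overlap. In the same groups the stem and progenitor sum was 130 to 153 and 398 to 708, again without overlap. The T and NK cell sum was 2172 to 4083 and 467 to 1046, also without overlap. Kit, the gene of the sort marker, had no named probe, and Flt3, Pax5 and Cd3e were detected on 0 arrays. In these bulk samples, fewer cells of a type and less RNA per cell cannot be told apart, and the part of cell type in the results below was not tested.

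No member was called changed in any of the 5 comparisons. With AML1-ETO9a in wild-type cells, 0 of 28 members were called, where 4.32% of all probes tested were. In Booreana cells 0 of 28 were called, where 1.65% of all probes were. Between the genotypes 0 of 28 were called with the control virus (6.35% of all probes) and 0 of 28 with AML1-ETO9a (3.74%). For the difference of the responses it was 0 of 28 (0.0862%). At an unadjusted limma p below 0.05 the numbers of members were 2, 1, 1, 2 and 1 in that order, against 13.4%, 12.3%, 16.9%, 11.6% and 6.66% of all probes. Leaving out Booreana control replicate 2 again gave 0 of 28 in each of the 5 comparisons, where 6.11%, 1.79%, 6.47%, 4.86% and 0.111% of all probes were called.

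The changes of the members were small beside their errors, and the intervals bound them. The median change of the 28 members was -0.03 with AML1-ETO9a in wild-type cells and -0.18 in Booreana cells, where all probes had medians of -0.0047 and -0.030. Between genotypes the median was 0.03 with the control virus and -0.12 with AML1-ETO9a, where all probes had 0.0052 and -0.026. Without Booreana control replicate 2 the median of the members in Booreana cells was -0.08. Without replicate 4 of both Booreana groups the medians between genotypes were 0.10 and 0.04. The 95% interval of the change lay within 2-fold either way for 21, 15, 15 and 19 of 28 members in those 4 comparisons, and for 8 of 28 in the difference of the responses. Among all probes the shares were 63.7%, 62.1%, 59.3%, 64.9% and 35.3%. Without Booreana control replicate 2 the numbers of members were 22, 20, 22, 21 and 13. For the remaining members the interval reached beyond 2-fold. It left out 0 for Mxd1 and Odc1 in wild-type cells, Mxd4 in Booreana cells, Mxd1 between genotypes with the control virus, Pes1 and Rrs1 between genotypes with AML1-ETO9a, and Odc1 in the difference of the responses, none of which was called. Members with the narrowest limits included Npm1, the abundant nucleolar histone chaperone, and Fbl, the methyltransferase of box C/D particles. Npm1 differed by no more than 0.13 in either direction in the 4 pairwise comparisons, and Fbl by no more than 0.14.

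**Figure D1:**
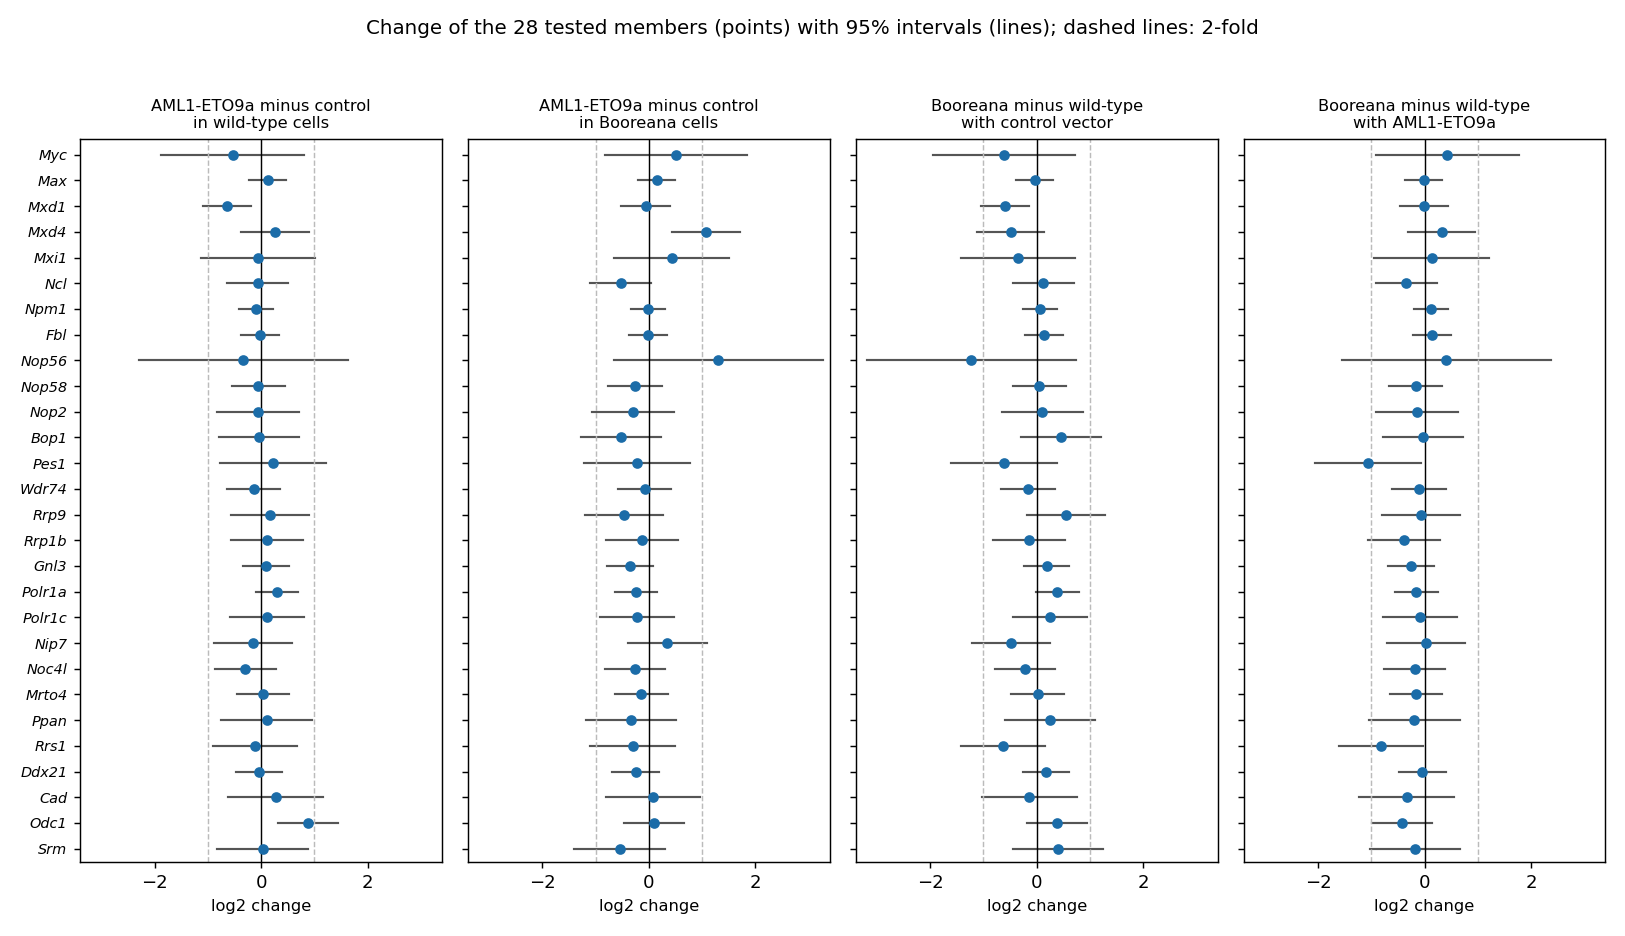
Log2 change of each of the 28 tested members in the 4 pairwise comparisons, with 95% intervals from the limma fit over 16 arrays. The estimates of the members scatter around 0, and none was called changed.

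Myc itself was well detected on 15 of 16 arrays. Its level was 8.46, 8.57, 8.00 and 8.37 in wild-type control cells and 7.60, 7.98, 7.31 and 8.36 with AML1-ETO9a. In Booreana cells it was 8.80, 4.88, 8.56 and 8.70 with the control virus and 8.39, 8.07, 8.14 and 8.38 with AML1-ETO9a. The 4.88 is that of replicate 2, where the probe had a detection p of 0.637 and so was not above background, and it lies far below the other 15 arrays. Wild-type cells with AML1-ETO9a had the 3 lowest values of the remaining arrays, while replicate 4 of that group reached 8.36 and overlapped the control.

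On all 16 arrays, the difference in Myc with AML1-ETO9a was -0.54 in wild-type cells (limma adjusted p = 0.886) and 0.51 in Booreana cells (adjusted p = 0.766). Without Booreana control replicate 2 the wild-type value was -0.53 (adjusted p = 0.190), and the Booreana value turned to -0.43 (adjusted p = 0.542). Booreana minus wild-type with the control virus turned likewise from -0.62 (limma adjusted p = 0.681) to 0.33 (adjusted p = 0.565). With AML1-ETO9a the genotype difference was 0.43 (adjusted p = 0.945) and 0.42 without that array (adjusted p = 0.371). The within-group SD of Myc fell from 0.991 to 0.284 when the array was left out. The sign of both comparisons that use Booreana control cells thus rested on 1 array.

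Two-sided exact permutation tests of Myc alone gave p = 0.0571 for AML1-ETO9a in wild-type cells, with 4 arrays against 4 and 0.0286 as the smallest p that the 70 splits allow. In Booreana cells the exact p was 1 with all arrays and 0.0286 without replicate 2, the smallest that 35 splits allow, since the 3 remaining control arrays all lay above the 4 AML1-ETO9a arrays. Without that array the genotype comparisons had exact permutation p-values of 0.0857 with the control virus and 0.114 with AML1-ETO9a. Adjusted over these 4 tests, every exact p was 0.114. The difference of the responses was 1.05 (limma adjusted p = 0.814) with all arrays and 0.09 (adjusted p = 0.999) without the array. A second Myc probe was detected on 0 arrays. Mycn, the neural relative of Myc, lay between 4.65 and 5.20 and was above background on no array.

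**Figure D2:**
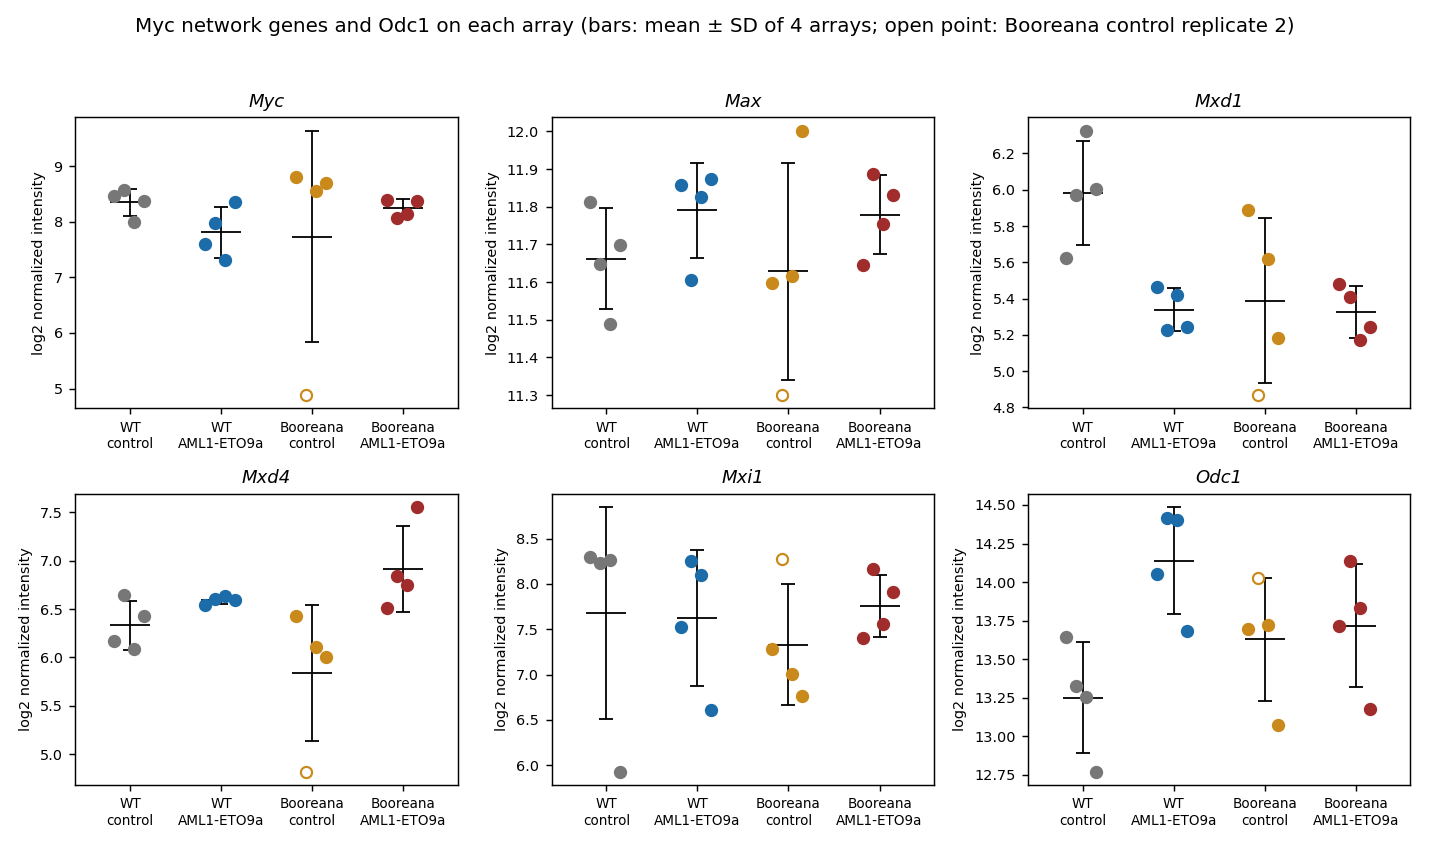
Log2 normalised intensity on each of the 16 arrays for the 5 tested genes of the Myc network and Odc1, with bars for the mean ± SD of the 4 arrays of a group and an open point for Booreana control replicate 2. Myc lies between 7.31 and 8.80 on 15 arrays and at 4.88 on Booreana control replicate 2.

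Max, the obligate partner of Myc, was nearly level across the study by the probe used here. It measured 11.81, 11.65, 11.49 and 11.70 in wild-type control cells and 11.86, 11.60, 11.82 and 11.87 with AML1-ETO9a. Booreana values were 11.60, 11.30, 11.62 and 12.00 with the control virus, and 11.65, 11.89, 11.75 and 11.83. All 4 groups overlap, and its difference was 0.13 and 0.15 with AML1-ETO9a in the wild-type and Booreana genotypes (limma adjusted p = 0.900 and 0.733). A second, dimmer Max probe was above background on 12 of 16 arrays and varied more, from 4.78 to 7.68. Its means were 6.64 and 6.61 in wild-type cells with control virus and AML1-ETO9a, and 6.15 and 6.79 in Booreana cells.

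Mxd1, the Max partner that replaces Myc as myeloid cells mature, was dim. It measured 5.62, 5.97, 6.33 and 6.01 in wild-type control cells and 5.46, 5.23, 5.42 and 5.24 with AML1-ETO9a. The Booreana values were 5.89, 4.87, 5.62 and 5.18 with the control virus and 5.48, 5.41, 5.17 and 5.24 with AML1-ETO9a. It was above background on 3, 0, 2 and 0 arrays of these groups, so the AML1-ETO9a groups have only an upper bound. The wild-type control arrays all lay above the wild-type AML1-ETO9a arrays, and the Booreana control arrays overlapped both.

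The mean Mxd1 level of wild-type control arrays lay 1.23-fold above the detection limit of the wild-type AML1-ETO9a arrays. This bound takes no account of the spread between arrays. The fitted difference was -0.64 with a 95% interval of -1.10 to -0.19, and it was not called (limma adjusted p = 0.126). Between genotypes with the control virus it was -0.59, with an interval of -1.05 to -0.14 (limma adjusted p = 0.135). In Booreana cells, where the control group was itself above background on 2 arrays only, no fold could be bounded. Mxd1 was called with array weights in wild-type cells (limma adjusted p = 0.0116) and without Booreana control replicate 1 between genotypes with the control virus (0.0468, with 5.91% of probes called). The neutrophil granule sums were highest in the wild-type control group, where Mxd1 was also highest, and the part of those cells in the Mxd1 values was not tested.

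Mxd4, another antagonist of Myc, measured 6.16, 6.65, 6.08 and 6.43 in wild-type control cells and 6.54, 6.60, 6.63 and 6.60 with AML1-ETO9a. Booreana arrays gave 6.43, 4.82, 6.11 and 6.00 with the control virus and 6.51, 6.84, 6.75 and 7.56 with AML1-ETO9a. The Booreana AML1-ETO9a arrays all lay above the Booreana control arrays, and replicate 2 was again the lowest control. Mxd4 had a detection p of 0.718 on that array and so was not above background there. The difference there was 1.08 with a 95% interval of 0.44 to 1.71, a 2.11-fold change (limma adjusted p = 0.0983). Without replicate 2 it was 0.74 (adjusted p = 0.145), and with no normalisation between arrays 1.28 (adjusted p = 0.0320, with 1.36% of probes called). In wild-type cells it was 0.26 (limma adjusted p = 0.881), and the difference of the responses was 0.81 (adjusted p = 0.786).

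Mxi1 measured 8.29, 8.24, 8.27 and 5.93 in wild-type control cells and 7.53, 8.26, 8.10 and 6.61 with AML1-ETO9a. Booreana arrays ran from 6.76 to 8.28 with the control virus and measured 7.40, 8.16, 7.56 and 7.91 with AML1-ETO9a. Replicate 4 was lowest in all groups but Booreana AML1-ETO9a, and all 4 groups overlap. Its differences ranged from -0.35 to 0.43 in the 4 pairwise comparisons.

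Among groups of 4 arrays, 3 members did not overlap between control and AML1-ETO9a in wild-type cells. They were Mxd1, Noc4l (small subunit assembly) and Odc1, where 11.3% of all probes did not overlap. In Booreana cells only Mxd4 of the 28 did not overlap (6.58% of all probes). Between genotypes 0 members did not overlap with the control virus (11.1%) and 1, Pes1, with AML1-ETO9a (9.26%). These counts are at or below the share among all probes.

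Odc1, ornithine decarboxylase, the first enzyme of polyamine synthesis and a classic Myc target, came nearest to a call. It measured 13.65, 13.33, 13.26 and 12.77 in wild-type control cells and 14.05, 14.42, 14.40 and 13.68 with AML1-ETO9a. In Booreana cells it measured 13.70, 14.02, 13.72 and 13.07 with the control virus and 13.72, 14.14, 13.83 and 13.18 with AML1-ETO9a. Wild-type AML1-ETO9a arrays all lay above wild-type control arrays, while the Booreana groups overlapped. The difference in wild-type cells was 0.89 with a 95% interval of 0.33 to 1.45, or 1.85-fold (limma adjusted p = 0.0771). In Booreana cells it was 0.09 (adjusted p = 0.916), and the difference of the responses was -0.80 (adjusted p = 0.743).

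Same-numbered arrays of a genotype deviated together, though only weakly for wild-type replicate 3 (correlation 0.167). Taken by number, Odc1 was higher with AML1-ETO9a in 4 of 4 wild-type pairs, by 0.41, 1.09, 1.15 and 0.91. With that number as a block within genotype, the limma adjusted p was 0.00825, under a fit that called 7.52% of all probes. Odc1 was also called with the number as a block over all arrays (adjusted p = 0.00574, with 5.08% of probes called), with array weights (0.00430, 8.82%) and without replicate 4 of both Booreana groups (0.0345, 4.95%). In the 4 Booreana pairs the differences were 0.02, 0.11, 0.11 and 0.11. The other enzymes were Srm, which makes spermidine, and Cad, which starts pyrimidine synthesis. Their differences ranged from -0.55 to 0.39 for Srm and from -0.33 to 0.27 for Cad, with no call. Taken by number, Srm was lower with AML1-ETO9a in 4 of 4 Booreana pairs, at -0.55, -0.63, -0.47 and -0.55. With the block within genotype its limma adjusted p was 0.0811. Ncl, Nop2, Rrp9, Gnl3, Polr1a and Ddx21 were also lower in 4 of 4 Booreana pairs. Mxd4 and Odc1 were higher in all of them. In 4 of 4 wild-type pairs Polr1a, like Odc1, was higher, and Myc (at -0.006 in replicate 4), Mxd1 and Noc4l were lower. These counts were not set against all probes.

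The 20 ribosome biogenesis members hovered near 0 in wild-type cells. With AML1-ETO9a there, 12 of the 20 lay below 0, their median was -0.04 and their range ran from -0.33 for Nop56 to 0.30 for Polr1a. Polr1a, the largest subunit of RNA polymerase I, had an adjusted p of 0.609 by limma. Noc4l differed by -0.29 (adjusted p = 0.822). The 95% interval lay within 2-fold for 18 of the 20.

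In Booreana cells with AML1-ETO9a, 18 of the 20 lay below 0 with a median of -0.25, where the median of all probes was -0.03. Without Booreana control replicate 2, 16 of the 20 lay below 0 with a median of -0.08. The smallest adjusted p-values among them were those of Ncl, or nucleolin, at -0.53 (limma adjusted p = 0.453), Gnl3, or nucleostemin, at -0.35 (adjusted p = 0.525), and Bop1, which acts with Pes1 in large subunit assembly, at -0.53 (adjusted p = 0.584). Bop1 measured 10.44, 11.05, 10.80 and 8.99 in Booreana control cells and 10.05, 9.79, 9.84 and 9.47 with AML1-ETO9a. Replicate 4 of the control lay below every AML1-ETO9a array, so the groups overlap.

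With the control virus, 7 of the 20 lay below 0 between genotypes, with a median of 0.08. The median was 0.015 with 9 below 0 without Booreana control replicate 2, and 0.18 with 6 below 0 without replicate 4 of both Booreana groups. Bop1 differed by 0.46 (limma adjusted p = 0.572) and was called at 0.90 without Booreana control replicate 4 (0.0422, with 5.85% of probes called) and without replicate 4 of both Booreana groups (0.0417, 6.05%). Polr1a differed by 0.39 (limma adjusted p = 0.312) and Rrs1, a large subunit assembly factor, by -0.63 (adjusted p = 0.444). Rrs1 was above background on 4 wild-type and 3 Booreana control arrays. With AML1-ETO9a, 16 of the 20 lay below 0 in Booreana cells, with a median of -0.15. The smallest adjusted p-values were those of Pes1 and of Rrs1, which differed by -0.82 with an interval of -1.61 to -0.03 (limma adjusted p = 0.393). Rrs1 was above background on 1 of 4 Booreana AML1-ETO9a arrays and on 3 of 4 wild-type ones, so the value is a fit to signals near background.

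Pes1 measured 8.87, 9.07, 9.29 and 9.41 in wild-type control cells and 9.51, 9.20, 9.22 and 9.60 with AML1-ETO9a. In Booreana cells it measured 9.16, 9.32, 8.59 and 7.12 with the control virus and 8.83, 8.98, 8.66 and 6.83 with AML1-ETO9a. All Booreana AML1-ETO9a arrays lay below the wild-type ones, and replicate 4 was the lowest array of both Booreana groups. The difference with AML1-ETO9a was -1.06, with an interval of -2.05 to -0.06 (limma adjusted p = 0.373). Without replicate 4 of both Booreana groups it was -0.56 (adjusted p = 0.283).

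Nop56, a core protein of box C/D particles, shows how far 1 array can carry a member. It measured 11.69, 5.89, 11.28 and 9.80 in Booreana control cells, and the 5.89 of replicate 2 had a detection p of 0.0727. Its difference with AML1-ETO9a in Booreana cells was 1.30, with an interval of -0.66 to 3.27, and 0.04 without that array. Between genotypes with the control virus it was -1.23 and 0.03 without the array.

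Booreana control replicate 2 lay outside the range of the other 15 arrays for 14 of 28 members, or 50%, where 48.6% of all probes did so. For 6 of those members it was the lowest array and for 8 the highest. Against the mean of the other 3 Booreana control arrays Myc was lower by 3.81 and Nop56 by 5.03, while Rrp9, a U3 particle protein, was higher by 1.39 and Rrs1 by 1.40. The median absolute deviation was 0.789 over the members and 0.659 over all probes. Probes of 1 gene also parted on that array, where 1 Srm probe lay 5.45 below the mean of the other 3 and the Srm probe used here lay 1.13 above. Without the array the median within-group SD of the members went from 0.455 to 0.359, and that of all probes from 0.399 to 0.351.

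**Figure D3:**
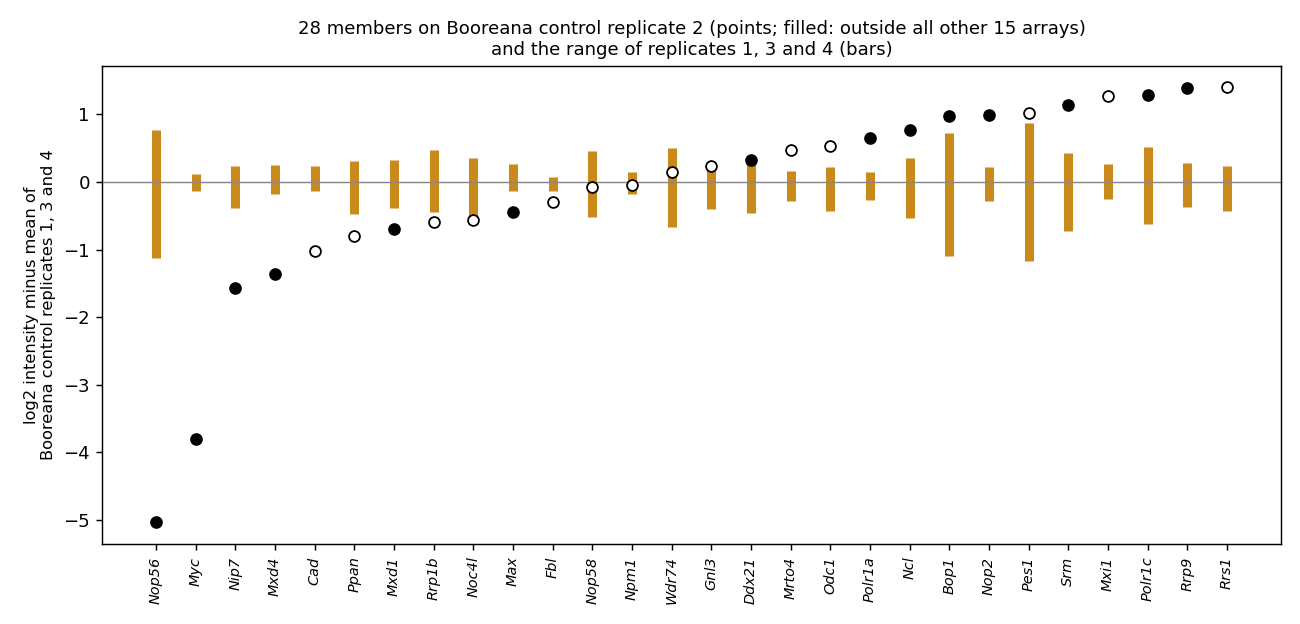
Difference of Booreana control replicate 2 from the mean of the other 3 Booreana control arrays, in log2 units, for each of the 28 tested members (points, filled where the array lay outside all other 15), with bars for the range of those 3 arrays. Nop56 and Myc lie lowest at -5.03 and -3.81, and Rrs1 and Rrp9 highest at 1.40 and 1.39.

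Replicate 4 of both Booreana groups had low ribosome biogenesis genes. Of the 20 members, 15 had their lowest value of the group on Booreana control replicate 4 and 17 on Booreana AML1-ETO9a replicate 4, or 75% and 85%, where 27.5% and 31.4% of all probes did so. The median deviation of the 20 from the mean of the other arrays of their group was -0.64 and -0.59 on these arrays. For all probes it was -0.04 and -0.05. On each of the other 14 arrays, 0 to 7 of the 20 were the lowest of the group. Myc was not low there, at 8.70 and 8.38. The pattern was seen after the values were known and is given as a description.

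Further assembly factors were examined on the same 2 arrays. Of 34 small subunit genes, 22 and 28 had their lowest value on control replicate 4 and AML1-ETO9a replicate 4. Of 33 genes of large subunit assembly the numbers were 20 and 28, of 14 genes of RNA polymerase I 5 and 10, and of 8 genes of box C/D and H/ACA particles 3 and 4. On Booreana control replicate 2, 6 of the 14 polymerase I genes were lowest, so in that list control replicate 4 does not stand out. Wild-type control replicate 4 was lowest of its group for 16 of the 34 small subunit genes. Wild-type AML1-ETO9a replicate 2 was lowest of its group for 7 of the 14 polymerase I genes. Cell markers moved on the 2 Booreana replicate 4 arrays as well. The neutrophil granule sum was the lowest of its group on both, at 116346 and 135370, and the mast cell and basophil sum the highest, at 59273 and 88544. The erythroid sum was also highest of its group, at 9221 and 12228. Other sums differed between the 2 arrays. The S phase and mitosis sum was lowest of its group on AML1-ETO9a replicate 4 (19972) and not on control replicate 4 (25568). The stem and progenitor sum was lowest on control replicate 4 (251) and not on AML1-ETO9a replicate 4 (1019). The part of these markers in the low biogenesis genes was not tested.

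Without replicate 4 of both Booreana groups, an alternative added after seeing the data, the medians of the 20 ribosome biogenesis members between genotypes moved up. With AML1-ETO9a the median was 0.04 with 7 below 0, in place of -0.15 with 16 below 0. With the control virus it was 0.18 with 6 below 0, in place of 0.08 with 7. For AML1-ETO9a against control in Booreana cells the median was -0.22 with 17 of 20 below 0, while leaving out Booreana control replicate 2 instead brought it to -0.08 with 16 below 0.

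**Figure D4:**
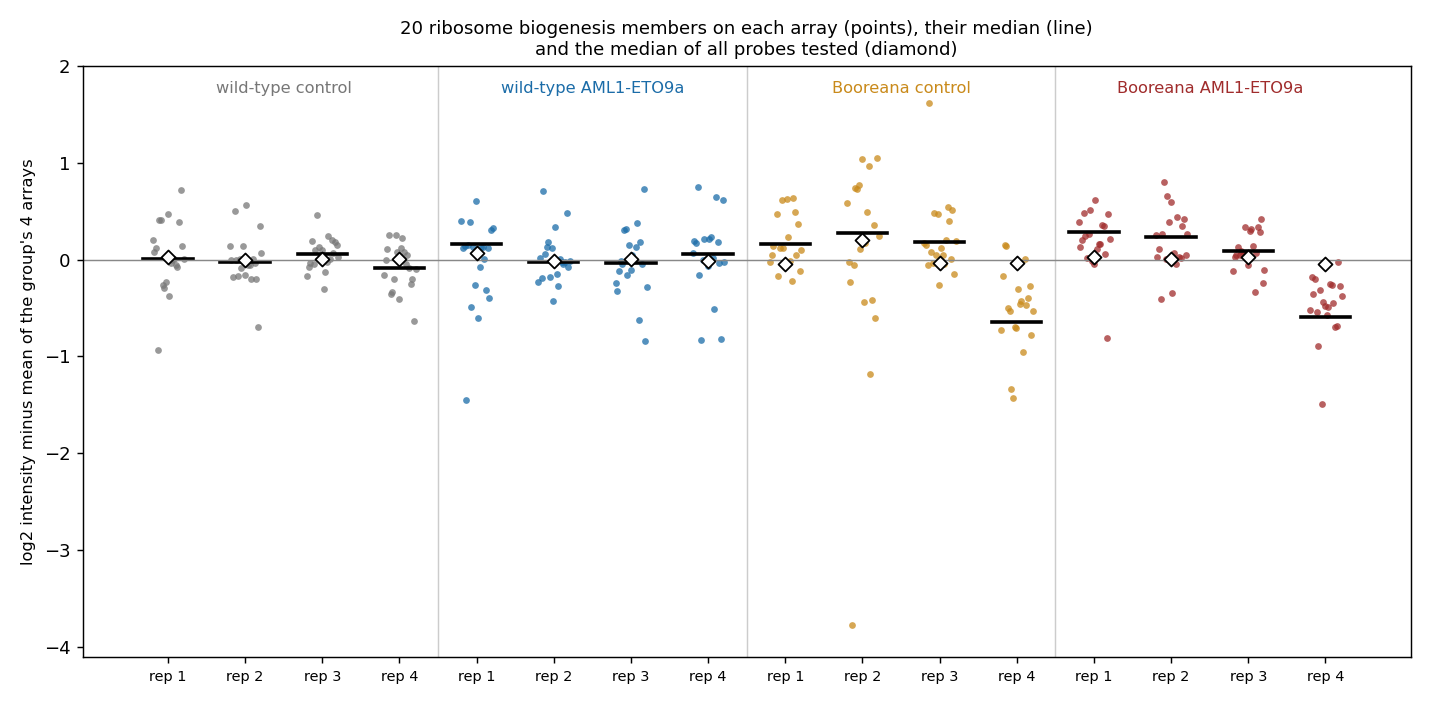
Deviation of each of the 20 tested ribosome biogenesis members from the mean of the 4 arrays of its group, on each of the 16 arrays, in log2 units (points). Lines give the median deviation of the 20 from the mean of the other arrays of the group, and diamonds that of all probes tested. The lines are thus not the medians of the points. For Booreana replicate 4 the lines lie at -0.64 and -0.59, the lowest of the 16 arrays.

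Wider lists of the same machinery were examined for calls. They held 34 tested genes of the small subunit processome, 33 of large subunit assembly, 14 of RNA polymerase I and 8 of box C/D and H/ACA particles. In the fit used throughout, 0 of these were called in any comparison. Under alternatives given at the end, the small subunit, large subunit and box C/D and H/ACA lists each held up to 1 call. The call was most frequent in the box C/D and H/ACA list. In wild-type cells with AML1-ETO9a the gene with the smallest adjusted p among the small subunit genes was Tsr1, at 0.59 (limma adjusted p = 0.614), and among the large subunit genes Eif6, at 0.34 (adjusted p = 0.595). Znhit3, a factor for the assembly of box C/D particles, came nearest, at 0.70 in wild-type cells (limma adjusted p = 0.0583) and 0.61 in Booreana cells (adjusted p = 0.162). Taf1d, of the polymerase I initiation factor, was at -0.42 (adjusted p = 0.620).

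In Booreana cells with AML1-ETO9a the medians were -0.26 for the small subunit genes, with 28 of 34 below 0, and -0.23 for large subunit assembly, with 27 of 33. Without Booreana control replicate 2 they were -0.15 with 26 of 34 below 0, and -0.22 with 30 of 33. Without replicate 4 of both Booreana groups they were -0.28 with 28 of 34, and -0.15 with 25 of 33. The leading genes were Heatr1 at -0.38 (limma adjusted p = 0.348), Pak1ip1 at -0.56 (adjusted p = 0.406) and Polr1e at -0.50 (adjusted p = 0.331). Between genotypes with the control virus they were Rcl1 at 0.52 (limma adjusted p = 0.239), Eif6 at 0.36 (adjusted p = 0.439), Nop10 at 0.47 (adjusted p = 0.400) and Polr1h at 0.29 (adjusted p = 0.450). With AML1-ETO9a they were Nat10 at -0.62 (limma adjusted p = 0.291), Sdad1 at -0.54 (adjusted p = 0.362), Znhit3 at -0.40 (adjusted p = 0.465) and Polr1g at -0.50 (adjusted p = 0.384).

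Further lists of genes tied to Myc held a few calls. In wild-type cells with AML1-ETO9a, where 4.32% of all probes were called, calls were made for 2 of 8 genes of polyamine metabolism, 1 of 22 of nucleotide synthesis (4.55%), 1 of 19 raised by Myc in many cells (5.26%), 2 of 13 lowered by Myc and 0 of 16 partners. In Booreana cells 0 genes of these lists were called (1.65% of all probes). Between genotypes 1 of 16 partners was called with each virus (6.25%, beside 6.35% and 3.74% of all probes), and 3 and 1 of the 13 genes lowered by Myc. The shares of nucleotide synthesis, of genes raised by Myc and of partners with the control virus are thus near those of all probes.

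Of 8 tested genes of polyamine metabolism, 2 rose with AML1-ETO9a in wild-type cells and 0 fell. Smox, which oxidises spermine back to spermidine, measured 9.50, 9.08, 8.69 and 8.88 in wild-type control cells and 11.09, 10.38, 10.80 and 10.53 with AML1-ETO9a. Booreana arrays gave 9.41, 9.92, 9.15 and 10.71 with the control virus and 9.92, 10.05, 10.08 and 10.99. The wild-type groups were apart, and the Booreana groups overlapped. Smox rose 3.16-fold in wild-type cells, by 1.66 with an interval of 0.97 to 2.35 (limma adjusted p = 0.00619), and 2 of its other 4 probes were called as well, at 1.98 and 1.69. The difference of the Smox responses was -1.20 (adjusted p = 0.600). The marker sums of neutrophil granules, monocytes, megakaryocytes, eosinophils, T and NK cells, stem and progenitor cells, and S phase and mitosis also separated the wild-type groups. Their part in the values of Smox, Arg2 and Tfrc was not tested.

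Arg2, the arginase that makes ornithine, measured 7.78, 7.96, 7.40 and 7.40 in wild-type control cells and 9.32, 8.98, 9.18 and 8.11 with AML1-ETO9a, with no overlap. Booreana arrays gave 7.55, 7.84, 7.12 and 6.80 with the control virus and 7.27, 8.52, 8.16 and 8.56 with AML1-ETO9a, with overlap. Arg2 rose 2.40-fold in wild-type cells, by 1.26 (limma adjusted p = 0.0374), and was not called in Booreana cells. The call in wild-type cells ended when any of 8 arrays was left out, with adjusted p-values from 0.0518 to 0.120. Odc1, which uses the product of Arg2, is described above.

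Tfrc, the transferrin receptor and a Myc target, measured 13.14, 13.09, 13.18 and 13.58 in wild-type control cells and 12.24, 12.25, 12.31 and 12.72 with AML1-ETO9a. Booreana arrays gave 12.61, 12.31, 12.74 and 13.10 with the control virus and 11.81, 12.18, 11.87 and 11.86. Both pairs of groups were apart. Tfrc fell by 0.87 in wild-type cells (limma adjusted p = 0.0152) and its difference in Booreana cells was -0.76 (adjusted p = 0.0645), or -0.89 without replicate 2 (adjusted p = 0.0233). A second Tfrc probe gave -0.86 in wild-type cells (adjusted p = 0.217). The call in wild-type cells ended without control replicate 4 (limma adjusted p = 0.0587).

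Rrm2, a subunit of ribonucleotide reductase used in S phase, was the called gene of nucleotide synthesis. It fell by 0.85 in wild-type cells carrying AML1-ETO9a (limma adjusted p = 0.0218). The S phase and mitosis sums were also lower there, but Rrm2 is itself among the genes summed, and their part was not tested. Its other probe gave -0.70 there (adjusted p = 0.247), and the call ended when any of 5 arrays was left out (adjusted p 0.0512 to 0.0905). Booreana arrays gave 10.80, 10.55, 10.89 and 10.51 with the control virus and 10.36, 10.01, 10.38 and 9.91 with AML1-ETO9a. The Booreana groups were also apart for Rrm2, without a call. Bin1, which binds Myc and holds it back, was the called partner. It was lower in Booreana cells, at -0.84 with the control virus (limma adjusted p = 0.0182) and -0.85 with AML1-ETO9a (adjusted p = 0.0274). A second Bin1 probe gave -0.50 and -0.48 (adjusted p = 0.472 and 0.684). The calls ended without wild-type control replicate 1 or 2 (0.0637 and 0.0572), and, with AML1-ETO9a, without any of 5 arrays of those groups (0.0597 to 0.0959).

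The calls among genes that Myc lowers in many cells fell on 4 genes. Cdkn1a, the cell cycle inhibitor p21, was higher by 0.85 in wild-type cells carrying AML1-ETO9a (limma adjusted p = 0.0160) and by 0.85 in Booreana control cells than in wild-type ones (adjusted p = 0.0114). Both calls ended without wild-type control replicate 3 (0.0719 and 0.0505), and 2 other Cdkn1a probes were not called. Cdkn2b, the inhibitor p15, was higher in Booreana cells by 1.76 with the control virus (limma adjusted p = 0.00311) and by 1.89 with AML1-ETO9a (adjusted p = 0.00314). It was above background on 1 and 2 arrays of the wild-type groups with the control virus and AML1-ETO9a, and on 4 arrays of each Booreana group, so both differences are fits against signals mostly at background. Cdkn1c, the inhibitor p57, was higher in Booreana cells by 1.19 with the control virus (limma adjusted p = 0.0424). It lost its call when any of 11 arrays was left out (adjusted p 0.0511 to 0.127). Cdkn1c was above background on 1 array of each wild-type group and on 4 of each Booreana group, so its difference is likewise such a fit. Cebpa, a myeloid transcription factor, fell by 2.53 in the same wild-type comparison (limma adjusted p = 0.00361), while neutrophil granule sums were also lower there. In Booreana cells its difference was -1.10 (adjusted p = 0.334), and without Booreana control replicate 2 it fell by 1.74 (adjusted p = 0.00114). The difference of the Cebpa responses was 1.44 (adjusted p = 0.720), or 0.80 without that array (adjusted p = 0.701). The difference of the responses was called for 0 of the 13.

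**Figure D5:**
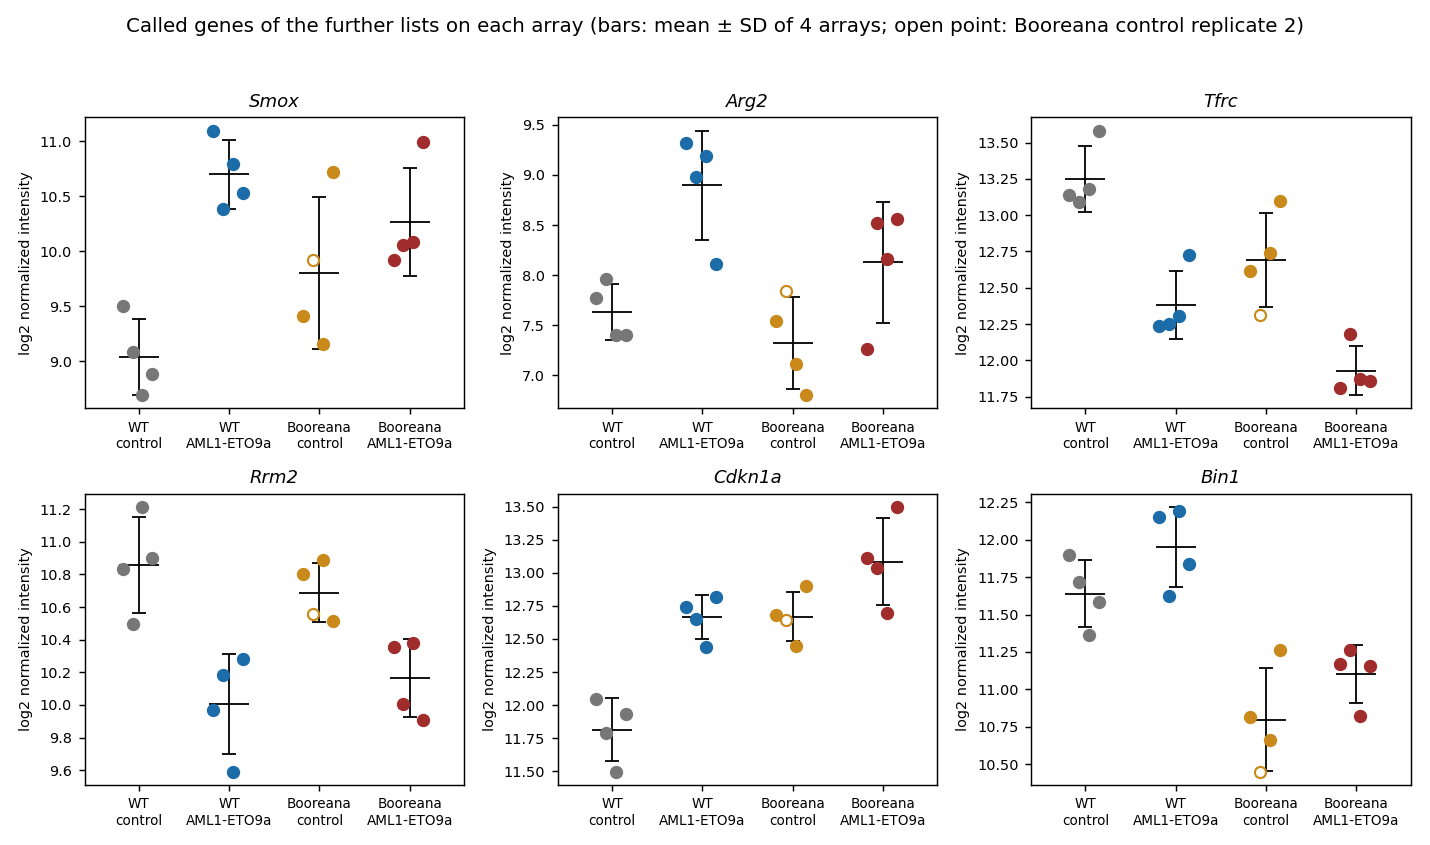
Log2 normalised intensity on each of the 16 arrays for 6 genes of the wider Myc pathway lists that were called in a comparison, with bars for the mean ± SD of 4 arrays and an open point for Booreana control replicate 2. Smox lies between 8.69 and 9.50 in wild-type control arrays and between 10.38 and 11.09 in wild-type AML1-ETO9a arrays.

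The start sites of the members were searched for the E-box CACGTG, which is its own reverse complement, in windows of RefSeq (mouse build GRCm38.p6) from 250 bases before to 50 after the start. A window was at hand for 32 of the 38 genes and not for Myc, Npm1, Fbl, Bop1, Rrs1 and Srm. The E-box was found in 6 of the 32, or 18.8%, and in 8.09% of the 27025 genes with a window. The variant CACGCG, searched on both strands (CGCGTG on the other) and added after seeing the data, was found in 9 of the 32, or 28.1%, and in 10.5% of all genes. Among the 22 tested members with a window, 4 had CACGTG and 6 had CACGCG. The stretches below are those of Max, the partner of Myc, and of the 3 members that lay outside the other group in a comparison and held either motif. The capitals mark the motif, and a match is a description of the letters only. Max is on the minus strand at chr12:76962229-76962288, Mxd4 on the minus strand at chr5:34187897-34187956, Pes1 on the plus strand at chr11:3963935-3963994 and Odc1 on the plus strand at chr12:17544666-17544725.
Max: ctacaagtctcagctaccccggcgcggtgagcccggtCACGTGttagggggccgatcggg
Mxd4: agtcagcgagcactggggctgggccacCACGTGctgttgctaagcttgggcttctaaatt
Pes1: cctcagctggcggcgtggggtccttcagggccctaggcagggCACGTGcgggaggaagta
Odc1: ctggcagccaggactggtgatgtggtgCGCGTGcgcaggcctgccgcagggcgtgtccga
In Max and Pes1 the motif lies at the start site, at -3 and 3, and in Mxd4 and Odc1 further upstream, at -219 and -180. The Odc1 window held a second CACGCG, at -101, and no CACGTG, and the Pes1 window also held CGCGTG at -247. None of the 4 genes was called in the 5 comparisons, as given above.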

How the data were processed

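Total RNA of 16 samples was labelled with biotin and hybridised to Illumina mouse Ref-8 bead arrays, 1 colour, 1 array a sample. The deposited scanner table gives a linear intensity and a detection p-value per probe, with no background correction named in the file headers, and the authors' deposited log2 values were made with lumi, per the submitters' processing notes, with the transformation not given in the sources used here. The authors' columns matched the scanner columns on 16 of 16 arrays and served as an alternative. All 16 columns were used.

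Intensities were corrected with normexp using the detection p-values (limma 3.58.1 in R 4.3.3, statmod 1.5.0, offset 16), which implied 798 negative probes, quantile-normalised and put on a log2 scale. Probes with a detection p below 0.05 on at least 4 arrays were kept, 12760 probes of 8833 genes. Gene symbols came from the platform annotation, with 23978 probes carrying 1 symbol and 1719 none, and 6 older symbols were matched by hand. A model of 4 group means gave the 5 comparisons, with Benjamini-Hochberg adjustment over all probes, a threshold of 0.05 and 95% intervals, and Myc also had exact permutation tests. Where a probe was not above background on any array of a group, a bound was given beside the fitted value; where it was on some arrays, their number was given. The precision is limited by 4 arrays a group. The labels name 4 Booreana mice but do not say that arrays of a group are separate mice. The p-values thus measure the spread between arrays, which may be technical. No 2 arrays were identical. The steps were tested on simulated data.

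Members and further lists were chosen with earlier results of these data known. Members of the Myc network and called members are given in full, others by range with up to 4 examples a comparison by smallest adjusted p, and further lists by their called genes, 4 at most, or else by the gene with the smallest adjusted p. Bop1, Nop56, Odc1 and Pes1 were given in full after their values were seen.

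Deviations of arrays with the same number from their group means correlated within each genotype, at 0.167 to 0.708 in wild-type and 0.362 to 0.418 in Booreana cells. Between genotypes the correlations were -0.507 to 0.329. Wild-type replicate 3, at 0.167, matched replicate 2 best. Between genotypes with the control virus, replicate 3 matched its own number best, at 0.329. Pairing of control and AML1-ETO9a arrays by number within a genotype was thus taken from the data, not from a label. For wild-type replicate 3 it is uncertain. Alternatives were no background correction, an offset of 50, no normalisation or cyclic loess, the authors' values, other filters, array weights, the number as a block, the 8 arrays of a comparison alone, other probes of a gene and each array left out. A block within genotype and a fit without both Booreana replicate 4 arrays were added after seeing the data.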

Additional observations from a re-analysis of the deposited data

Results flagged for a closer look

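For the 28 tested members, 112 groups of 4 arrays were checked for a value far from the rest of its group, by Dixon's test, and 6 had one. Chance alone gives about 1 in 20 groups, so 6 of 112 is near what chance gives. Myc on Booreana control replicate 2 was 4.88, with the nearest array of the group at 8.56, and is the only one of the 6 on that array. Mxi1 on wild-type control replicate 4 was 5.93 against 8.24. Pes1 on Booreana AML1-ETO9a replicate 4 was 6.83 against 8.66. Mrto4 on wild-type AML1-ETO9a replicate 1 was 11.3 against 11.2, and Cad and Srm on wild-type control replicate 1 were 10.4 against 9.31 and 13.3 against 12.4.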

How the results depend on the processing

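Of 1510 values under alternatives of 56 results, 1395 were scored as unchanged. For a single gene this meant the same direction and the same side of the threshold. For a count of calls it meant an equal or near count. For a median it meant a shift below 0.211, the spread of the members' median level between replicates, whatever the sign. With AML1-ETO9a in wild-type cells, 0 members were called, against 2 with array weights (Odc1 and Mxd1) and 1 (Odc1) with the replicate block, with the replicate block within genotype, and without both Booreana replicate 4 arrays. For the pairing, Odc1 had a limma adjusted p of 0.00574 with the replicate block over all arrays and 0.00825 with the block within genotype, which changed no other member's call. In Booreana cells 1 member (Mxd4) was called with no normalisation, and between genotypes with the control virus 1 (Bop1) without both replicate 4 arrays, 0 to 1 when leaving out each array. Myc with AML1-ETO9a in Booreana cells was -0.35 with array weights and -0.43 to 0.87 when leaving out each array, and Booreana minus wild-type with the control virus was 0.27 and -0.97 to 0.33. The median of members for the difference of the responses was -0.36 to 0.027 when leaving out each array. Among partners, the 1 call was 0 with no normalisation and 1 to 2 when leaving out each array. For the small subunit it was 1 without both replicate 4 arrays and 0 to 1, for large subunit assembly 1. For box C/D and H/ACA particles it was 1 with no background correction, offset 50, cyclic loess, the authors' values, detection on all 16 arrays, array weights and without both replicate 4 arrays, and 0 to 1 when leaving out each array. Nucleotide synthesis gave 0 with no normalisation, 2 with array weights and 0 to 1. Polyamine metabolism gave 1 with no normalisation, 1 with all probes tested and 1 to 2. Other genes raised by Myc gave 2 with no background correction, 0 with no normalisation, 3 with the authors' values, 4 with array weights, 2 without both replicate 4 arrays and 0 to 2. Genes lowered by Myc gave 2 with no normalisation, 1 with detection on all 16 arrays and 2 to 4. The cause was not tested. A fit with slide as a block was not run, since the files give no slide. With 4 arrays a group, changes under 2-fold often could not be told from 0, and signals below background have only bounds.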
